A study of Mus musculus with 9 samples.

Results

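The 78 genes described here are named for proteins of the mitochondrial ribosome, and their accessible chromatin was read in mouse B16 melanoma from ATAC-seq. That method inserts sequencing adaptors into open DNA with a transposase. The genes are all coding genes of the RefSeq annotation of GRCm38.p6 whose symbol is Mrpl or Mrps followed by a number, 78 of 21887 coding genes. Of these, 49 carry large subunit symbols (Mrpl) and 29 small subunit symbols (Mrps), and 6 pseudogenes with such symbols were left out. They lie on 17 chromosomes, with 11 on chromosome 11, 8 on chromosome 17, 7 on chromosome 6 and 6 on chromosome 7.

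The 9 libraries formed 3 groups of 3. B16_IFNg libraries came from B16 cells kept under chronic interferon gamma before injection into mice, for 2 weeks in replicates 1 and 2 and for 3 weeks in replicate 3. Res499 libraries came from line 499, which was derived from B16 and is resistant to immune checkpoint blockade, and B16_untreated libraries came from the parental line without treatment. All cells were grown as tumours in mice, harvested on day 15 and sorted, and the labels give neither the mouse strain nor the gate of the sort. Whether replicates were separate mice is not stated in the labels, and the p-values then reflect the spread between these libraries alone, which may be technical.

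The mitochondrial ribosome translates the few messenger RNAs of the mitochondrial genome, which encode core subunits of the respiratory chain and of ATP synthase. All its proteins are encoded in the nucleus, made in the cytosol and imported. The small subunit reads the messenger RNA, and the large subunit forms the peptide bond. Promoters of many such nuclear genes hold sites for NRF1 and for ETS family factors such as GABP.

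The promoters of 8 of the genes, taken from RefSeq (GRCm38.p6), are shown because the results below turn on them. Mrps14 and Mrpl17 had the best median ranks among genes with a peak in all 9 libraries, Mrps11 and Mrpl46 share one promoter, Mrpl10, Mrpl53 and Mrps31 met the rule for a gained or lost peak, and the start of Mrpl18 lies away from its annotated gene end. Each sequence runs 5′ to 3′ on the strand of the gene, 300 bases from 250 before the start, and capitals mark matches to the 5 motifs named after them.
Mrps14, chr1:160194965-160195264, plus strand: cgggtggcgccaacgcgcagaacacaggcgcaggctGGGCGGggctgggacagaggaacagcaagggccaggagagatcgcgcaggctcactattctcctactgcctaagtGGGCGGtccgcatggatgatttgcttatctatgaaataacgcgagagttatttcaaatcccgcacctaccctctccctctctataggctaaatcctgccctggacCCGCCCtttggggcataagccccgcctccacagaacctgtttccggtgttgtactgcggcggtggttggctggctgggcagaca
Mrpl17, chr7:105811038-105811337, minus strand: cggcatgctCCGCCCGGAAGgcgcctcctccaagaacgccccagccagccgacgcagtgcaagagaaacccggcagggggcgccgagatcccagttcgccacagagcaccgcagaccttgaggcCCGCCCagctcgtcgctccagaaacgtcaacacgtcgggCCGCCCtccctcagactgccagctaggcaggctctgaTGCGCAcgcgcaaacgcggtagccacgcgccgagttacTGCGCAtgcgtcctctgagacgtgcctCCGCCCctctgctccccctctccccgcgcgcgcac
Mrps11, chr7:78782881-78783180, plus strand: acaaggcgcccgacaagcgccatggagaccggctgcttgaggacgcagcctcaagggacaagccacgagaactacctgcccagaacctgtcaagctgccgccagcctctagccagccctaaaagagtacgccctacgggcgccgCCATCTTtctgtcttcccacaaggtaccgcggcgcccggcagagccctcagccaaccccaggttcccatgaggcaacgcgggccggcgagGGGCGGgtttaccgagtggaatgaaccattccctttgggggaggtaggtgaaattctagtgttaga
Mrpl46, chr7:78783040-78783339, minus strand: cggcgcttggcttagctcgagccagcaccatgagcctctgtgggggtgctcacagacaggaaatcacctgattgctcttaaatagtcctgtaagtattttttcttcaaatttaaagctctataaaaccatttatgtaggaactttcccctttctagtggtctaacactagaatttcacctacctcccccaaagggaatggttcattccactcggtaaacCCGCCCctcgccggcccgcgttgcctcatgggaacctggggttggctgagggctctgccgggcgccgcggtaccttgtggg
Mrpl10, chr11:97041332-97041631, plus strand: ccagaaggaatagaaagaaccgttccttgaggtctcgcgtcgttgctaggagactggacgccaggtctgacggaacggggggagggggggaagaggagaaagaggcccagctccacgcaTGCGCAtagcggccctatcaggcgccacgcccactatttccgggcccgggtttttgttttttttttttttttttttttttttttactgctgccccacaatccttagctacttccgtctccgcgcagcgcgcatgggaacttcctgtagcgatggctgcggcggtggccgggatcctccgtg
Mrpl53, chr6:83108858-83109157, plus strand: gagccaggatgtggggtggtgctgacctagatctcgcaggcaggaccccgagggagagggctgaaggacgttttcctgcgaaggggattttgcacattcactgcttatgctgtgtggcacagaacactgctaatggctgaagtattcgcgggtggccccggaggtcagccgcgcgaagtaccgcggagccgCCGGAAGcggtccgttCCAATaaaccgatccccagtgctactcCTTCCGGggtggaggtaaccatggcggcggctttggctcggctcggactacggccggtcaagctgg
Mrps31, chr8:22411090-22411389, plus strand: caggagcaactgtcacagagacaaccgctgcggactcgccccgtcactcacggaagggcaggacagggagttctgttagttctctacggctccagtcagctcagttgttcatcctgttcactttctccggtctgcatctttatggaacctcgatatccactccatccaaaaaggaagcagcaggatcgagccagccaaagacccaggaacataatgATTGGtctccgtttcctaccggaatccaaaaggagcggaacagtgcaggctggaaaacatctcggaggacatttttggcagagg
Mrpl18, chr17:12916042-12916341, minus strand: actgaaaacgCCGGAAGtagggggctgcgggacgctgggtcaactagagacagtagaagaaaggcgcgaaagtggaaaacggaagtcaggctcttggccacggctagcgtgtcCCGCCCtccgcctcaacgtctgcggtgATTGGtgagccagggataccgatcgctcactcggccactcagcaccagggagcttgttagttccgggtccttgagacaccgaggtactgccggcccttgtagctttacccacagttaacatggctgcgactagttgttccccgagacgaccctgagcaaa
The motifs were searched as exact letters on both strands. They were TGCGCA, the core of the NRF1 site and its own reverse complement, CCGGAAG for ETS factors, AAGATGG for YY1, GGGCGG for SP factors and CCAAT for NFY. Matches may overlap, as an SP and an ETS match do near the 5′ end of the Mrpl17 window.

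The table held 75 windows for 69 of the genes. TGCGCA occurred in 29.3% of these windows, against 9.74% of the 21263 windows of coding genes and 7.76% of all 32851 windows. CCGGAAG occurred in 34.7% of the mitoribosomal windows, against 11.6% of coding windows and 8.86% of all. AAGATGG occurred in 17.3%, against 6.24% and 6.34%. The NRF1, ETS and YY1 letters were thus held by a larger share of these promoters than of coding promoters. The related sets were also above coding promoters, with 17.2%, 30.1% and 13.98% for the 3 motifs in windows of cytosolic ribosomal protein genes and 22.0%, 27.5% and 15.4% in those of respiratory chain genes. GGGCGG occurred in 52%, against 46.2% of coding and 35.7% of all windows, and CCAAT in 40%, against 38.2% and 37.4%. The median G and C content was 58.7% in the mitoribosomal windows and 56.3% in coding windows. These shares describe letters in these windows, were not tested, and say nothing of which factor binds.

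The libraries differ in ways that touch every value below. The deposited lists held 9214 to 25362 peaks per library, with the shortest in Res499 replicate 2, so presence was compared among the 9214 most significant peaks of each library. The weakest of these 9214 peaks had a −log10 p of 7.46 to 10.1 in B16_IFNg, 4.92 to 8.75 in Res499 and 11.8 to 16.4 in B16_untreated. The relative depth recovered from the lists was 7.59 to 11.1 fragments per kb and did not separate the groups, and the absolute depth is unknown. The shortest peak of a list was 162 to 185 bp in B16_IFNg replicate 3, Res499 replicate 3 and B16_untreated replicates 1 and 3, here called the long class (at least 150 bp), and 95 to 125 bp in the other libraries, the short class. The classes were read from the lists, and the caller settings behind them are not given in the sources used here. Among melanocyte markers, Mitf and Pmel had a peak in all 9 lists and Sox10 and Mlana in none, and in the full lists each of these last had a peak in 1 library. Dct had a peak in 2 lists of each group and Tyr in 1 of each, while Tyrp1 had one in 2 B16_IFNg, 0 Res499 and 3 B16_untreated lists. None of 5 leukocyte markers had a peak in any full list, and among 4 endothelial and stromal markers only Col1a1 had one, in 7 of 9.

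Most mitoribosomal genes had an accessible site at a gene end in every group, and the groups did not separate by how many did. A peak at either gene end (within 1 kb) was present among the 9214 best peaks for 45, 48 and 42 of the 78 genes in B16_IFNg replicates 1, 2 and 3. The numbers were 52, 43 and 50 in Res499 and 51, 49 and 45 in B16_untreated. The group means were 45.0 ± 3.00 in B16_IFNg, 48.3 ± 4.73 in Res499 and 48.3 ± 3.06 in B16_untreated (SD, n = 3 each), so the libraries of all groups overlapped. An exact test of 3 against 3 libraries cannot go below p = 0.1, and none was made.

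The full lists gave another order. There 62, 57 and 48 of the genes had a peak in B16_IFNg, 63, 43 and 57 in Res499 and 70, 72 and 68 in B16_untreated. The means were 55.7 ± 7.09, 54.3 ± 10.3 and 70.0 ± 2.00 in that order (SD, n = 3 each), and every B16_untreated library was above every library of the other groups. Coding genes did not separate in this way, since 9567, 8672 and 7834 of them had a peak in B16_IFNg, 9290, 7116 and 8268 in Res499 and 9216, 10535 and 10026 in B16_untreated. Respiratory chain genes did separate, with 71 to 86, 65 to 83 and 88 to 91 of 105 in the same order of groups. Cytosolic ribosomal protein genes, with 68 to 85, 65 to 80 and 82 to 86 of 101, did not. The lists differ in length, with 16231, 13163 and 11181 peaks in B16_IFNg, 15385, 9214 and 11765 in Res499 and 15042, 25362 and 20136 in B16_untreated. The replicates numbered 1, with 16231, 15385 and 15042 peaks, had 62, 63 and 70 of the genes in the full lists and 45, 52 and 51 in the equal lists. They are single libraries, and that of B16_untreated is of the long class while the others are of the short class. The difference between groups in the full lists, and the part of list length in it, was not tested. It was not seen in the equal lists.

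**Figure D1:**
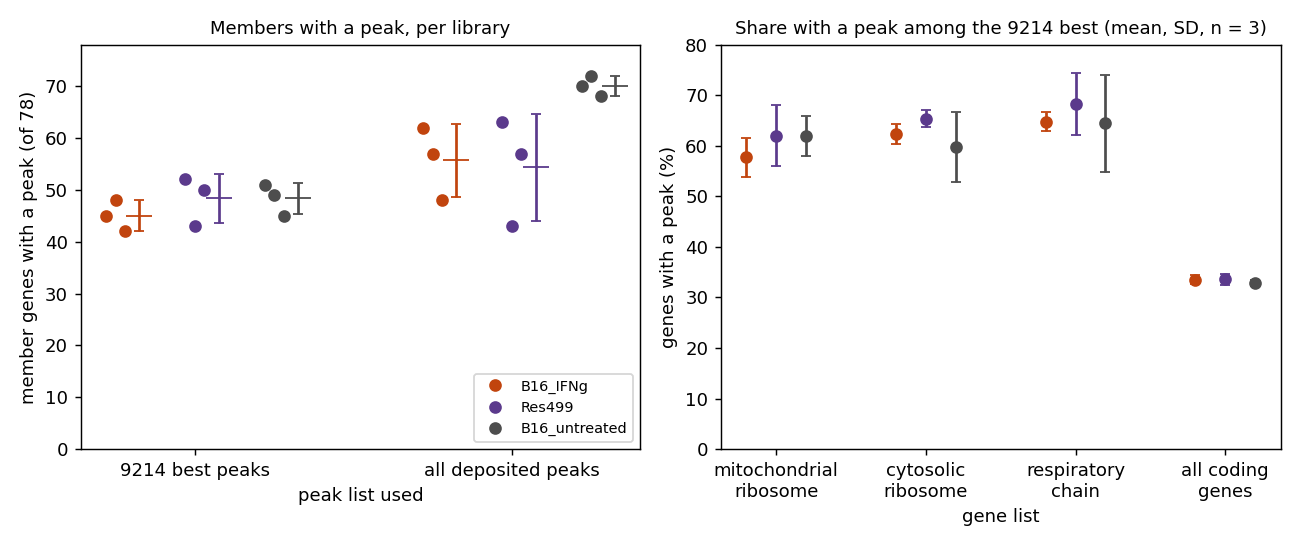
Left, number of the 78 mitoribosomal genes with a peak at a gene end (within 1 kb) in each library (points; cross and bar, mean and SD, n = 3), among the 9214 best peaks and in all deposited peaks. Right, mean share of genes with a peak among the 9214 best (SD, n = 3) for 4 gene lists; the groups overlap at 42 to 52 genes in the equal lists, and B16_untreated stands above the others, at 68 to 72 genes, only in the full lists.

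The share of mitoribosomal genes with a peak lay near those of related housekeeping sets. Their mean share among the 9214 best peaks was 57.7% ± 3.85 in B16_IFNg, 62.0% ± 6.06 in Res499 and 62.0% ± 3.92 in B16_untreated (SD, n = 3 each). The 101 genes of cytosolic ribosomal proteins had 62.4% in B16_IFNg, 65.3% in Res499 and 59.7% in B16_untreated. The 105 genes of the respiratory chain had 64.8%, 68.3% and 64.4% in the same order of groups. All coding genes had 33.5%, 33.6% and 32.9%. These shares are descriptions, with no test between lists.

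Of the 78 genes, 25 had a peak in all 9 equal lists (32.1%), 44 in some and 9 in none. The share in all 9 was 30.7% for cytosolic ribosomal protein genes (31 of 101), 38.1% for respiratory chain genes (40 of 105) and 20.1% for all coding genes (4406 of 21887). Of the large subunit genes 15 of 49 were in all 9, and of the small subunit genes 10 of 29. In the full lists 34 genes had a peak in all 9 libraries and 4 in none.

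The large subunit genes with a peak in every list were Mrpl2, Mrpl15, Mrpl17, Mrpl19, Mrpl32, Mrpl34, Mrpl39, Mrpl40, Mrpl41, Mrpl47, Mrpl48, Mrpl50, Mrpl51, Mrpl54 and Mrpl57. The small subunit genes were Mrps9, Mrps14, Mrps18b, Mrps26, Mrps27, Mrps28, Mrps30, Mrps33, Mrps35 and Mrps36. They include core proteins with bacterial relatives, such as Mrpl2 and Mrpl15 of the large subunit and Mrps9 and Mrps14 of the small one, and proteins found in mitochondria only, such as Mrpl41 and Mrps27. Of the 44 genes in some lists, 9 were in 8 lists, 4 in 7, 6 in 6, 2 in 5, 7 in 4 and 16 in 1 to 3. The 9 in none were Mrpl3, Mrpl4, Mrpl16, Mrpl20, Mrpl22, Mrpl24, Mrps10, Mrps23 and Mrps34, and of these Mrpl4, Mrpl22, Mrpl24 and Mrps23 had no peak at a gene end in the full lists either. The Mrps18 paralogues differed among themselves, since Mrps18b was in all 9 lists, Mrps18a in 2 and Mrps18c in 1.

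**Figure D2:**
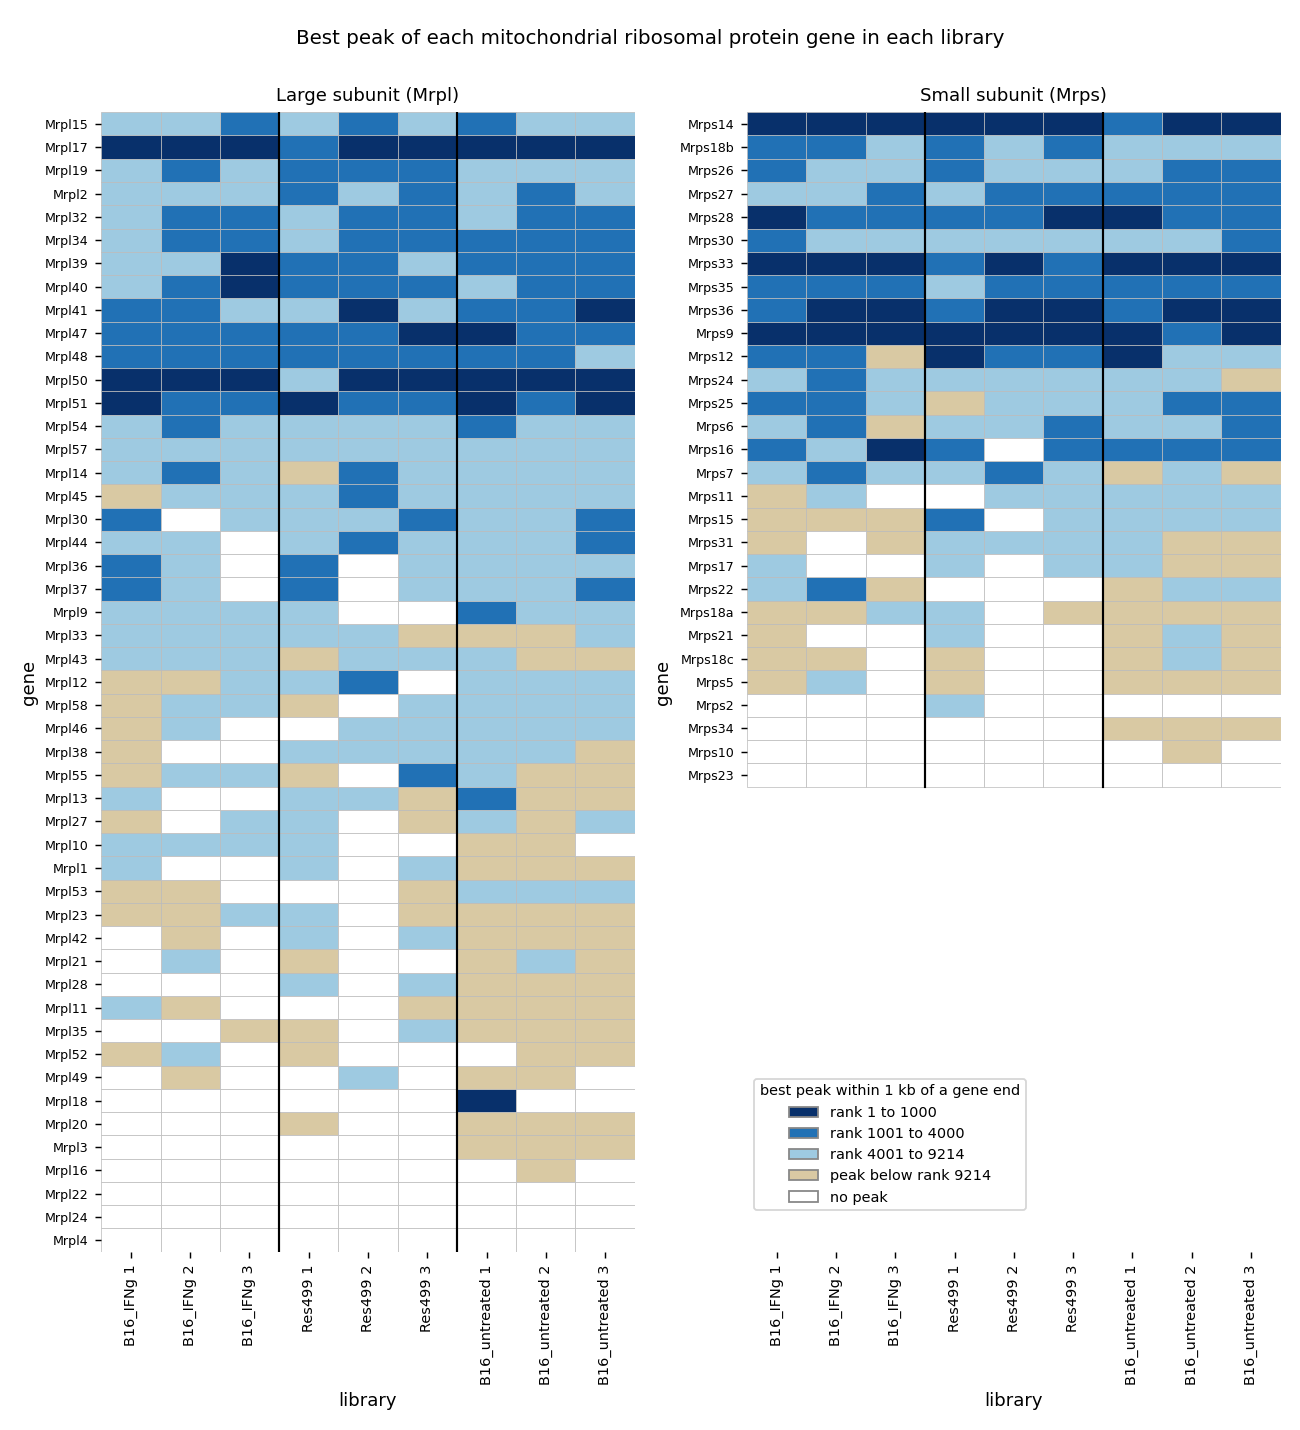
Rank class of the best peak of each of the 78 genes (rows, large subunit left, small subunit right, ordered by number of lists with a peak) in each library (columns, in the order B16_IFNg, Res499, B16_untreated). Dark to light blue marks ranks within the 9214 best peaks, tan a peak below that rank and white no peak; 25 genes are blue throughout, and the B16_untreated columns hold more tan cells than the others.

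At the top of the lists stood Mrps14, a protein of the small subunit head. Its peak lay over the start on chromosome 1, at chr1:160194926-160195359 in B16_IFNg replicate 1. It ranked 139, 71 and 128 in B16_IFNg replicates 1 to 3, 221, 389 and 233 in Res499 and 1264, 210 and 210 in B16_untreated, where rank 1 is the most significant peak of a library. B16_IFNg ranks were nearer the top than those of both other groups, without overlap. The fold over local background was 14.1, 15.7 and 10.4 in B16_IFNg, 10.7, 9.26 and 8.12 in Res499 and 8.51, 19.4 and 14.3 in B16_untreated. The promoter printed above holds 3 SP matches and none of the other motifs.

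Mrpl17, a large subunit protein, had the next best ranks. They were 261, 156 and 210 in B16_IFNg, 1786, 861 and 263 in Res499 and 498, 386 and 298 in B16_untreated. Its B16_IFNg ranks were also nearer the top than all others, while those of Res499 and B16_untreated overlapped. Its promoter holds 2 NRF1 matches, 1 ETS match and 4 SP matches.

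Among the genes with a peak in every list, genes with small subunit symbols held 4 of the 6 best median ranks. The 6 were Mrps14 (210), Mrpl17 (298), Mrps9 (443), Mrps33 (674), Mrpl50 (717) and Mrps36 (737). Mrps36 is named as a ribosomal protein, but in mammals its product is a subunit of the 2-oxoglutarate dehydrogenase complex. Of the same 25 genes, the lowest median ranks were those of Mrpl54 (5349), Mrpl57 and Mrpl15 (5291 each), Mrps30 (5157), Mrpl19 (4914) and Mrpl2 (4838). Over genes with a peak in all 9 lists, the median of the median ranks was 2573 for mitoribosomal genes, 3303 for cytosolic ribosomal protein genes, 2485 for respiratory chain genes and 2632.5 for all coding genes.

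Most of the peaks counted sat near gene starts. Of 62 genes with a RefSeq start and a peak among the 9214 best, 39 had their median summit within 100 bp of a start, 54 within 250 bp and 59 within 1 kb. Of those 59, 41 had the summit upstream and 18 at or downstream of the start, and the median distance over the 62 was 76 bp. Summits thus lay mostly just upstream of the start. Peaks were chosen within 1 kb of a gene end, which favours nearness to a start, and the same shares were not drawn for all coding genes.

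**Figure D3:**
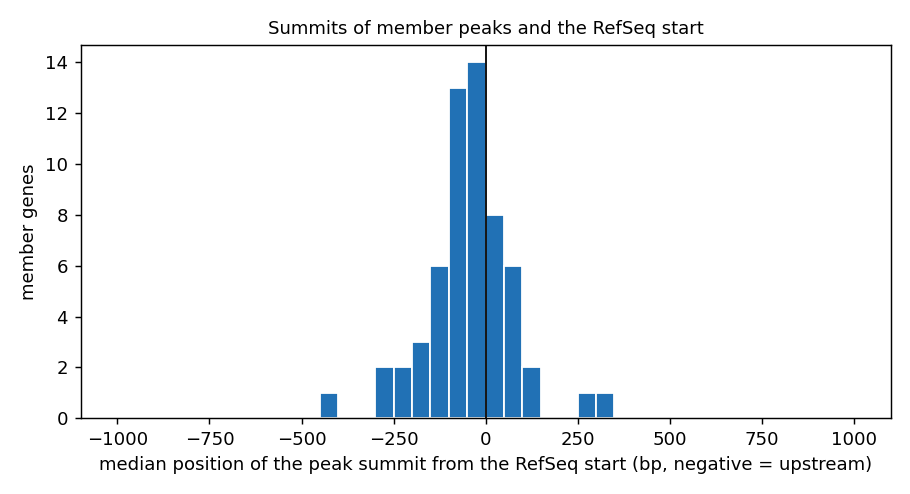
Histogram of the median summit position of each mitoribosomal gene's best peaks relative to its RefSeq start (x axis, bp, negative upstream; y axis, genes), for genes within 1 kb. Most of the 59 genes lie within 250 bp of the start, and 41 lie upstream.

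Many of the genes start close to a neighbour on the opposite strand. Of the 69 genes with a start in the table, 25 (36.2%) had the start of another coding gene within 1 kb on the opposite strand. Of 17492 coding genes 1681 did (9.61%). Whether the genes of a pair point away from each other was not checked. Among genes with a peak in all 9 lists the count was 11 of 20, and among the others 14 of 49. The 11 include Mrpl2, whose counted peak lay far from its start in most libraries. The 14 include Mrpl18, which had a peak at its start in all 9 lists. The split by lists was not made for coding genes at large, so it is not shown to be particular to these genes. The neighbours include other genes of mitochondria, such as Ndufb5 (a complex I subunit) beside Mrpl47, Twnk (the mitochondrial DNA helicase) beside Mrpl43 and Sars2 (mitochondrial seryl-tRNA synthetase) beside Mrps12. A peak near both starts of such a pair cannot be assigned to either gene alone.

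Mrps11 and Mrpl46 form such a pair on chromosome 7, with starts 42 bp apart on opposite strands. Their printed windows overlap by 141 bp, and they shared 1 peak in each library that had one. It ranked 10392 and 9008 in B16_IFNg replicates 1 and 2 and was absent from replicate 3. It ranked 4528 and 8788 in Res499 replicates 2 and 3 and was absent from replicate 1, and it ranked 6594, 5877 and 7387 in B16_untreated. They count as 2 genes in the numbers above but rest on 1 site, and its presence differed between replicates of B16_IFNg and of Res499.

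Annotated gene ends missed the promoter of some genes. Mrpl18, a large subunit protein that binds the ribosomal 5S RNA in bacteria, starts 1696 bp inside its annotated extent (chr17:12911345-12917787), near the start of Tcp1. By the end rule it had a peak only in B16_untreated replicate 1, whose edge lay 985 bp from the end. At the RefSeq start a peak was present in all 9 lists, with ranks 654, 1599 and 931 in B16_IFNg, 484, 1925 and 469 in Res499 and 186, 430 and 367 in B16_untreated. The B16_untreated ranks were nearest the top, and the peak lay at chr17:12915950-12916639 in B16_IFNg replicate 1.

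Mrps23, whose start lies 10282 bp inside its annotated extent, likewise had no peak at a gene end and a peak in all 9 lists at its start. Mrpl22 had a start peak in 5 lists, namely B16_IFNg replicate 3, the 3 Res499 libraries and B16_untreated replicate 1. Mrpl24 had one in B16_IFNg replicate 3 at rank 8771, in no Res499 library and in all of B16_untreated at ranks 8391, 9151 and 5953. At Mrpl2 the peak counted by the end rule lay at the far end of the gene, near the start of Cul7, in 8 of 9 libraries, and only 5 of its 9 lists had one at a start. Mrpl58, a peptidyl-tRNA hydrolase of the large subunit, had a peak at its start in 1 list, against 6 lists by the end rule, and Mrpl36 in 5, against 7. Counted at RefSeq starts, a setting chosen after seeing the data, 26 of the 78 genes were in all 9 lists and 6 in none.

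Few genes had a peak in all libraries of one group while lacking it in all of another. In B16_IFNg against B16_untreated, 1 of the 50 genes with a peak in at least 3 of the 6 libraries was gained, Mrpl10, where 0.49% of the coding genes so tested were. The same comparison lost 2 genes, Mrpl53 and Mrps15, where 0.348% of coding genes were lost. In Res499 against B16_untreated, 0 of 51 genes were gained (0.965% of coding genes) and 1 was lost, Mrpl53 (0.824%). In Res499 against B16_IFNg, 2 of 51 were gained, Mrpl38 and Mrps31 (0.507%), and 0 were lost (0.621%). The comparisons share libraries, counts of 0 to 2 genes are small, and the rule gives no p.

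Mrpl10, a protein of the stalk base that carries Mrpl12, had its peak at the start on chromosome 11. It ranked 8649, 8795 and 8572 in B16_IFNg, just within the 9214 best. It ranked 7168 in Res499 replicate 1 and was absent from replicates 2 and 3, and it ranked 9447 and 13934 in B16_untreated replicates 1 and 2 and was absent from replicate 3. The summit held 13, 9 and 12 fragments in B16_IFNg, 14 in Res499 replicate 1 and 19 and 13 in the B16_untreated libraries with a peak. So the full lists held the peak in 2 of 3 B16_untreated libraries, and the gain rested on the limit of 9214.

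Mrpl53, a large subunit protein, had its peak over a promoter with 2 ETS matches and 1 NFY match. It ranked 9987 and 10798 in B16_IFNg replicates 1 and 2 and was absent from replicate 3. It ranked 10748 in Res499 replicate 3 and was absent from replicates 1 and 2, and in B16_untreated it ranked 8805, 6507 and 8757. Every B16_untreated rank was nearer the top than every rank in the other groups. Summits held 15 and 10 fragments in B16_IFNg, 16 in Res499 replicate 3 and 24, 26 and 26 in B16_untreated.

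Mrps15, a small subunit protein, had a peak in all B16_IFNg full lists, at ranks 9424, 10542 and 10210. In Res499 it ranked 1361 and 7480 in replicates 1 and 3 and was absent from replicate 2, and in B16_untreated it ranked 6258, 6807 and 8489. The B16_IFNg peaks thus lay just below the limit rather than missing, and the Res499 libraries differed among themselves.

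Mrpl38 and Mrps31 met the rule in Res499 against B16_IFNg. Mrpl38, a large subunit protein, ranked 7503, 8341 and 8645 in Res499, at the gene end away from Trim65. In B16_IFNg only replicate 1 had a peak, at rank 10267 and at the end beside Trim65, and in B16_untreated it ranked 6065, 8467 and 12133. Mrps31, a small subunit protein, ranked 8104, 5820 and 5521 in Res499, against 13732 and 9263 in B16_IFNg replicates 1 and 3 and none in replicate 2. In B16_untreated it ranked 8346, 15439 and 16830. For Mrpl38 Res499 overlapped B16_untreated, and for Mrps31 every Res499 rank was nearer the top than every rank of the other groups.

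**Figure D4:**
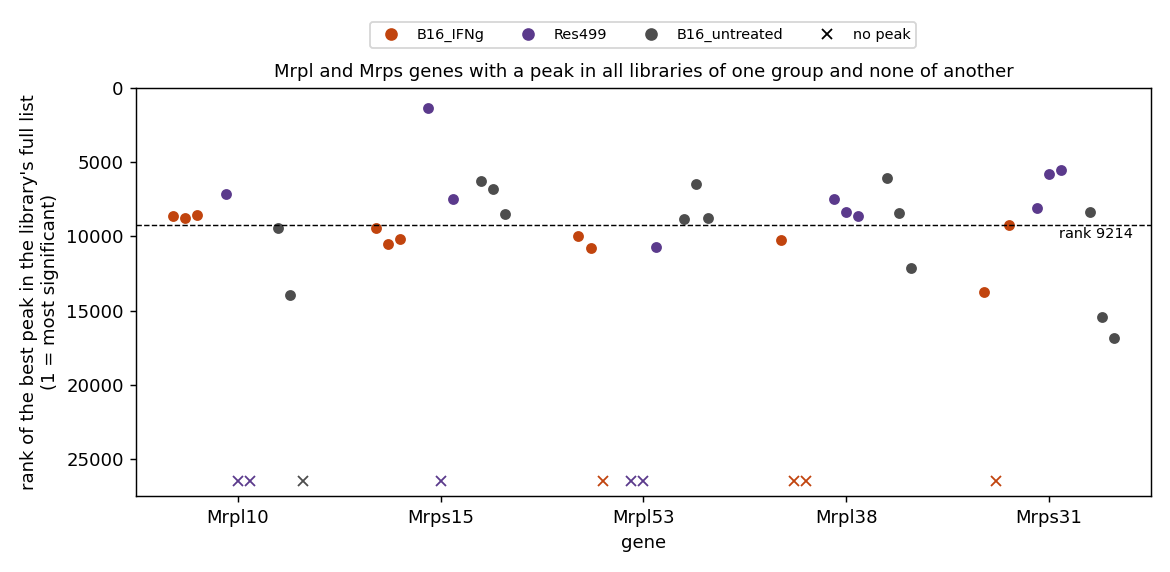
Rank of the best peak in the full list (y axis, 1 = most significant at the top) for the 5 genes that met the rule in some comparison, by group and library (points; crosses mark no peak). The dashed line is rank 9214; Mrpl10 and Mrps15 in B16_IFNg lie close to it on either side.

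Single libraries changed these counts. In B16_IFNg against B16_untreated, 2 genes were gained without any 1 B16_untreated replicate, and 4 were lost without B16_IFNg replicate 2. In Res499 against B16_untreated, 3 were gained without Res499 replicate 2 (Mrpl1, Mrpl28 and Mrpl42) and 1 without B16_untreated replicate 1 or 2, and 2 were lost without Res499 replicate 1, Res499 replicate 3 or B16_untreated replicate 1. In Res499 against B16_IFNg, 5 were gained without Res499 replicate 2, and 1 was lost without B16_IFNg replicate 3 and 2 without Res499 replicate 1. The coding genes moved too, with 78 to 154 gained and 73 lost in the first comparison, 126 to 197 gained and 125 to 152 lost in the second, and 98 gained and 115 to 129 lost in the third, against 38, 27, 75, 64, 40 and 49 with all libraries. Ranked by fold enrichment, none of the 5 genes met the rule.

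The full lists gave other genes. In B16_IFNg against B16_untreated, 4 were lost (Mrpl20, Mrpl28, Mrpl3 and Mrps34), among 115 lost coding genes. In Res499 against B16_untreated, 3 were lost (Mrpl3, Mrps22 and Mrps34), among 234. In Res499 against B16_IFNg, Mrps22 was lost, among 43. The numbers of genes tested in the full lists are not given here, so the shares lost cannot be compared with coding genes. Mrpl20 had a peak in 1 Res499 library and Mrpl28 in 2. Mrpl3, a protein of the peptidyl transferase region, and Mrps34, a small subunit protein, had no peak in any B16_IFNg or Res499 library. In B16_untreated, Mrpl3 ranked 13522, 16844 and 15546 and Mrps34 11832, 20488 and 19426, all beyond the length of the equal lists. Mrps22, a small subunit protein, had no peak in any Res499 library, against ranks 8180, 3408 and 10285 in B16_IFNg and 11176, 8122 and 7611 in B16_untreated. Several lists without a peak end before these ranks. Res499 replicates 2 and 3 hold 9214 and 11765 peaks, and B16_IFNg replicates 2 and 3 hold 13163 and 11181. No peak could be seen in any of them at the Mrpl3 ranks. The same holds at the Mrps34 ranks for Res499 replicates 2 and 3 and B16_IFNg replicate 3.

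No mitoribosomal gene passed the test for the rank of its peak. Ranks were turned into normal scores (higher is nearer the top) and fitted with limma over the 4406 coding genes with a peak in all 9 lists, 25 of them mitoribosomal, with Benjamini-Hochberg adjustment. At an adjusted p under 0.05, 0 of the 25 were called in any of the 3 comparisons, and 0% of coding genes were. At an unadjusted p under 0.05 there were 0 in B16_IFNg against B16_untreated (3.47% of coding genes), 1 in Res499 against B16_untreated, Mrpl19 (6.22%), and 0 in Res499 against B16_IFNg (5.61%).

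Mrpl19, a large subunit protein, showed the widest difference of ranks between groups that did not overlap. It ranked 4914, 3381 and 7562 in B16_IFNg, 2032, 3395 and 3973 in Res499 and 8817, 7796 and 5049 in B16_untreated. Every Res499 rank was nearer the top than every B16_untreated rank, and B16_IFNg overlapped both. The difference of normal scores in Res499 against B16_untreated was 1.38 (SE 0.45, limma adjusted p = 0.724).

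For Mrps14, whose ranks are given above, the difference in B16_IFNg against B16_untreated was 0.57 (SE 0.38, limma adjusted p = 0.9999). For Mrpl17 it was 0.28 (SE 0.38, limma adjusted p = 0.9999) in that comparison and −0.65 (SE 0.38, limma adjusted p = 0.866) in Res499 against B16_IFNg. None of these differences passed the test.

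Over the 25 genes, groups did not overlap and were nearer the top in 2 genes in B16_IFNg against B16_untreated (Mrpl17 and Mrps14), where 5.27% of coding genes did so, and farther in 0 (4.49%). In Res499 against B16_untreated the counts were 1 (Mrpl19, background 5.56%) and 0 (5.42%). In Res499 against B16_IFNg they were 1 (Mrpl48, 5.13%) and 2 (Mrpl17 and Mrps14, 5.33%). These shares are small counts near the background. The median difference over the 25 genes was 0.03 in B16_IFNg against B16_untreated, 0.03 in Res499 against B16_untreated and −0.07 in Res499 against B16_IFNg, beside 0.00, −0.01 and −0.01 over all coding genes tested. The sign of the second became negative, at −0.22, without B16_untreated replicate 1 and at −0.01 without Res499 replicate 2, and that of the third positive, at 0.10, without B16_IFNg replicate 1. The second was also negative under 4 other settings, from −0.0023 to −0.09, so these medians near 0 have no stable sign.

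The peaks of mitoribosomal genes were narrower in both B16_IFNg and Res499 than in B16_untreated, and so were those of coding genes at large, though no single mitoribosomal gene passed the test. The median width over the 25 genes was 599, 401 and 573 bp in B16_IFNg, 501, 358 and 615 bp in Res499 and 693, 718 and 802 bp in B16_untreated. Every B16_untreated library was above every library of the other groups. Over all 4406 coding genes tested the medians were 658, 524 and 627.5 bp in B16_IFNg, 597, 472 and 636.5 bp in Res499 and 763.5, 763.5 and 877 bp in B16_untreated, the same order.

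The mean log2 width was lower in 25 of 25 genes in B16_IFNg against B16_untreated and in 25 of 25 in Res499 against B16_untreated. The median log2 difference was −0.32 and −0.57, a ratio of 0.802 and 0.674, beside −0.40 and −0.49 over all coding genes, a ratio of 0.756 and 0.713. In Res499 against B16_IFNg it was −0.14 over the 25 genes and −0.08 over all coding genes, with 17 of 25 genes lower, and without Res499 replicate 2 the median was 0.01. Less the median width of all genes tested in each library, the median difference was 0.09 in B16_IFNg and −0.07 in Res499 against B16_untreated. The narrowing was thus shared with the whole lists. The weakest peaks of the B16_untreated lists had the highest −log10 p, as given above, and the part of that difference in width was not tested.

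Within the long and short classes the order was the same. In the long class the median width was 573 bp in B16_IFNg replicate 3 and 615 bp in Res499 replicate 3, against 693 and 802 bp in B16_untreated replicates 1 and 3. In the short class it was 599 and 401 bp in B16_IFNg, 501 and 358 bp in Res499 and 718 bp in B16_untreated replicate 2. Classes with 1 library of a group allow no test.

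**Figure D5:**
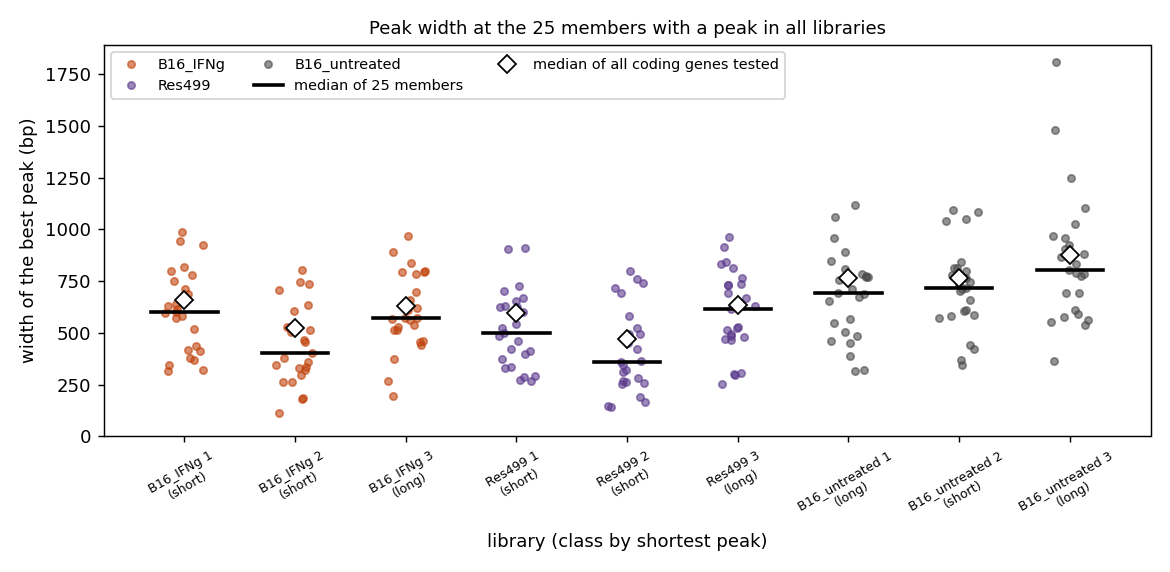
Width of the best peak (y axis, bp) of the 25 mitoribosomal genes with a peak in all 9 lists, by library with its class by shortest peak (points; bar, their median; diamond, median of all 4406 coding genes tested). The bars of B16_untreated, at 693 to 802 bp, stand above those of B16_IFNg and Res499, and the diamonds do the same.

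By limma, 0 of the 25 genes were called narrower or wider in any of the 3 comparisons at an adjusted p under 0.05. At an unadjusted p under 0.05, 3 were narrower in B16_IFNg against B16_untreated, 11 in Res499 against B16_untreated and 2 in Res499 against B16_IFNg, and 0 were wider in any of them. At that p, in either direction, stood 17.3%, 27.7% and 4.97% of coding genes in the same comparisons. Of all coding genes, 0.113% were called narrower in Res499 against B16_untreated and 0% in the other comparisons. Without Res499 replicate 3 that comparison called 72 coding genes, of which 0 were mitoribosomal. Widths did not overlap between groups, lower in the first, for 11 of 25 genes in B16_IFNg against B16_untreated (34.7% of coding genes) and for 13 of 25 in Res499 against B16_untreated (41.4%). In Res499 against B16_IFNg the count was 2 of 25, Mrpl50 and Mrpl54 (5.47%). Widths without overlap that were higher in the first group were found for 0 of the 25 genes, beside 0% of coding genes in B16_IFNg against B16_untreated, 0.0227% in Res499 against B16_untreated and 2.07% in Res499 against B16_IFNg.

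Mrpl34, a large subunit protein whose peak lies upstream on chromosome 8 near Abhd8, had the lowest adjusted p. Its peak was 371, 378 and 459 bp wide in B16_IFNg, 487, 263 and 527 bp in Res499 and 773, 718 and 1479 bp in B16_untreated. Both groups lay below all of B16_untreated. The log2 difference was −1.22 (SE 0.34, limma adjusted p = 0.220) in B16_IFNg and −1.20 (SE 0.34, limma adjusted p = 0.115) in Res499 against B16_untreated. Less the median width of each library these were −0.81 (limma adjusted p = 0.975) and −0.70 (limma adjusted p = 0.783).

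Mrpl41, a large subunit protein beside Pnpla7, was 417, 345 and 527 bp wide in B16_IFNg, 628, 265 and 691 bp in Res499 and 889, 735 and 1250 bp in B16_untreated. The log2 difference was −1.14 (SE 0.37, limma adjusted p = 0.238) in B16_IFNg against B16_untreated, and −0.73 less the library median. Mrpl40, a large subunit protein beside the histone chaperone gene Hira, was 923, 516 and 798 bp wide in B16_IFNg, 725, 363 and 914 bp in Res499 and 1116, 1051 and 1808 bp in B16_untreated. Its log2 difference was −0.83 in B16_IFNg and −1.05 in Res499 against B16_untreated, and −0.41 and −0.54 less the library median. Neither group overlapped B16_untreated at either gene.

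Among small subunit genes, Mrps27 had a log2 difference of −1.11 (SE 0.36, limma adjusted p = 0.238) in B16_IFNg against B16_untreated, and −0.69 less the library median. Its widths were 380, 181 and 195 bp in B16_IFNg, 274, 256 and 494 bp in Res499 and 461, 421 and 692 bp in B16_untreated, and Res499 overlapped B16_untreated. Mrps26 had a log2 difference of −1.31 (SE 0.51, limma adjusted p = 0.157) in Res499 against B16_untreated, and −0.81 less the library median. Its widths were 628, 186 and 439 bp in B16_IFNg, 269, 144 and 307 bp in Res499 and 314, 657 and 880 bp in B16_untreated, so the lowest B16_untreated value lay just above the highest of Res499.

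The peaks behind these values were shallow. The fragments piled up at the summit were recovered for all 540 mitoribosomal peaks of the full lists, and ranged over 6 to 75 with a median of 19.5. The peak at rank 9214 held 12, 9 and 11 fragments at its summit in B16_IFNg, 13, 9 and 16 in Res499 and 18, 17 and 24 in B16_untreated.

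The other genes of mitochondrial translation were read in the same way. Of 50 such genes (ribosomal proteins under other names, translation factors, assembly factors and mitochondrial tRNA synthetases), 21 had a peak in all 9 equal lists and 7 in none. The mean number with a peak was 32.7 in B16_IFNg, 34.7 in Res499 and 33.3 in B16_untreated. By limma 0 of the 21 were called in rank or width in any comparison. At an unadjusted p under 0.05 the counts were 0, 2 and 3 in rank and 0, 3 and 1 in width for B16_IFNg against B16_untreated, Res499 against B16_untreated and Res499 against B16_IFNg, where coding genes had 3.47%, 6.22% and 5.61% in rank and 17.3%, 27.7% and 4.97% in width. Of the 5 ribosomal proteins without an Mrp symbol, Dap3 and Ptcd3 had a peak in all 9 lists and Chchd1 and Gadd45gip1 in none.

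By presence, 3 of these genes met the rule. Of the 50 genes, 1 was gained in B16_IFNg against B16_untreated, where 0.49% of coding genes tested were. In Res499 against B16_untreated 1 was gained (0.965%) and 1 lost (0.824%). In Res499 against B16_IFNg 2 were lost (0.621%). How many of the 50 had a peak in at least 3 of the 6 libraries is not given here. Gfm1, the mitochondrial elongation factor G, had a peak in all 3 B16_IFNg and all 3 B16_untreated lists and in 0 of 3 Res499 lists, also 0 of 3 in the full ones. Oxa1l, which inserts new proteins into the inner membrane, had one in 3 of 3 B16_IFNg lists, 0 of 3 Res499 lists and 0 of 3 B16_untreated lists. In the full lists it was in 2 Res499 and 3 B16_untreated libraries. Ddx28, a helicase of large subunit assembly, had one in 2 of 3 B16_IFNg, 3 of 3 Res499 and 0 of 3 B16_untreated lists, and in all 3 full B16_untreated lists. Gfm1 thus was the one of the 3 whose absence held in the full lists. In those lists 234 coding genes were lost in Res499 against B16_untreated and 43 in Res499 against B16_IFNg.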

How the data were processed

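ATAC-seq peak lists of 9 libraries in 3 groups of 3 were used, on GRCm38 (mm10). The submitters' processing notes name Bowtie2 2.2.4, cutadapt 1.9, MACS2 and CASAVA, without their order. How MACS2 was set, its version and whether reads were shifted for the transposase are not given in the sources used here. The deposited lists are called per library and give for each peak a score, a fold enrichment (a ratio over the local background), a −log10 p and a −log10 q, and they hold no read counts. The values, all made by the authors, served only to rank and describe peaks within a list. Fold and −log10 p together gave the whole number of summit fragments (within 0.01) and a relative depth.

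The genes were matched by symbol in a RefSeq table, which gives no strand or exons. The best ranked peak within 1 kb of either gene end stood for a gene, among the 9214 most significant peaks per library (as many as the shortest list holds) and in the full lists. Promoters came from a RefSeq table that held 69 of the 78 genes. A gene was gained or lost with a peak in all 3 libraries of one group and none of the other, among genes with a peak in at least 3 of the 6 libraries. Normal scores of rank and log2 width were fitted with limma 3.58.1 in R 4.3.3 over all coding genes with a peak in all 9 lists, with Benjamini-Hochberg adjustment and a threshold of 0.05, and the fit was tested on simulated data. Other steps used Python 3.11.15.

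The genes named are those gained, lost or called, those with the best and lowest ranks, those missing from libraries, and those with the largest differences among groups that do not overlap. Of these the text gives the leading ones, together with genes whose start lies away from a gene end. Gfm1, Oxa1l, Ddx28 and the neighbours of promoters were named after their values were seen. The genes, lists and tests were chosen with earlier results of these data known. Alternatives were all deposited peaks, 4607 peaks, ranking by fold, windows of 500 bp and 2.5 kb, a window at RefSeq starts, 1 exception allowed, genes with a peak in at least 6 libraries, ranks among tested genes, widths less the library median, the class by shortest peak, replicate number and each library left out.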

Additional observations from a re-analysis of the deposited data

How the results depend on the processing

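With all deposited peaks the mean number of mitoribosomal genes with a peak was 55.7 in B16_IFNg, 54.3 in Res499 and 70 in B16_untreated, and with 4607 peaks it was 24, 25.7 and 24. With a window of 2.5 kb it was 48 in B16_IFNg, 50.7 in Res499 and 50.3 in B16_untreated. Leaving out 1 library gave 43.5 to 46.5 in B16_IFNg, 46.5 to 51 in Res499 and 47 to 50 in B16_untreated. Within a library, a longer list holds at least as many genes by construction. The part of list length in the difference between groups was not tested.

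For B16_IFNg against B16_untreated, gained and lost genes numbered 0 and 4 with all deposited peaks (lost: Mrpl20, Mrpl28, Mrpl3 and Mrps34), 0 and 0 with 4607 peaks or ranked by fold, and 4 and 6 with 1 exception allowed. For Res499 against B16_untreated, 3 were lost with all deposited peaks, 1 was gained and 0 lost with 4607 peaks (Mrpl19 gained) or ranked by fold (Mrps18b gained), 5 and 4 with 1 exception, and 2 were lost (Mrpl24 and Mrpl53) with windows of 2.5 kb or at RefSeq starts, the last chosen after seeing the data. For Res499 against B16_IFNg, 0 and 1 met the rule with all deposited peaks, 0 were gained with 4607 peaks or by fold, and 5 and 3 met it with 1 exception. Without 1 library the gained and lost counts ranged over 1 to 2 and 2 to 4, 0 to 3 and 1 to 2, and 2 to 5 and 0 to 2 in the 3 comparisons. The coding genes gained and lost in the 3 comparisons numbered 1 and 115, 3 and 234, and 13 and 43 with all deposited peaks, 37 and 38, 74 and 37, and 54 and 48 with 4607 peaks, 72 and 42, 86 and 54, and 43 and 51 by fold, and 437 and 303, 536 and 411, and 403 and 384 with 1 exception. These are counts, and the numbers of genes tested under each setting are not given here. The settings differ in libraries, list length, ranking or rule, and the cause of the changed counts was not tested.

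By limma, 0 mitoribosomal genes were called under any of the 17 alternative settings, with a lowest adjusted p of 0.0683. Some of these settings apply to rank or to width only. Coding genes were called under some of them. In rank over genes in at least 6 libraries there were 4 to 10 per comparison and direction. In width there were 12 in B16_IFNg against B16_untreated without B16_IFNg replicate 1, and 72 in Res499 against B16_untreated without Res499 replicate 3. The median rank difference in B16_IFNg against B16_untreated was −0.13 when ranked by fold and −0.0058 over genes in at least 6 libraries. In Res499 against B16_untreated it was −0.03 with the class by shortest peak as a covariate, −0.02 with a 500 bp window, −0.0023 with ranks among the genes tested and −0.09 over genes in at least 6 libraries. Without 1 library the median rank differences ranged over 0.0028 to 0.11 in B16_IFNg against B16_untreated. They ranged over −0.22 to 0.14 in Res499 against B16_untreated and −0.0849 to 0.10 in Res499 against B16_IFNg. The median width differences ranged over −0.49 to −0.24, −0.66 to −0.44 and −0.24 to 0.01 in the same order of comparisons. Less the library median they were 0.0949 in B16_IFNg and −0.0652 in Res499 against B16_untreated.

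Over genes, the deviations of samples with the same replicate number were little correlated (−0.02 to 0.07 in rank and −0.14 to 0.15 in width). Such correlations leave out a shift common to all genes, so whether the numbers pair the libraries cannot be told. In Res499 against B16_untreated, a replicate block gave an SE of 0.26 for the width of Mrpl34, against 0.34 without it. For the rank of Mrpl19 the SE was 0.47, against 0.45 without the block. With the replicate number as a block the median differences stayed at 0.03, 0.03 and −0.07 in rank and at −0.32, −0.57 and −0.14 in width, and 0 mitoribosomal genes were called. Summits of few fragments and 3 libraries a group limit what these lists can show.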
